A study of Mus musculus with 25 samples.

Results

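The mir-181 family of the mouse consists of 6 microRNA precursors: mmu-mir-181a-1, mmu-mir-181a-2, mmu-mir-181b-1, mmu-mir-181b-2, mmu-mir-181c and mmu-mir-181d. They were taken by name from a table of 1193 precursors counted in blood. A filter on low counts left out 855 of the 1193 and kept all 6 members. Male C57BL/6 mice, of an inbred strain, were sampled at 2, 9, 15, 24 and 30 months of age. There were 5 small RNA libraries per age, 25 in all, and the labels name no treatment, allele or surgery in any group. The labels give the tissue as blood without saying whether cells, plasma or both were used. Each library carries its own number in the labels, but nothing states that the animals were housed or bled separately, so p-values measure the spread between these libraries.

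MicroRNAs are short RNAs cut from a hairpin precursor. One arm of the hairpin is loaded into an Argonaute protein and pairs with messenger RNAs, mainly through the seed at its 5′ end, which lowers translation and stability of those messengers. miR-181a is best known from the thymus, where it is abundant in immature T cells and raises the sensitivity of T cell receptor signalling by repressing phosphatases of that pathway. It was also among the first microRNAs found to promote B cell development. In whole blood the microRNAs of red cells make up most of the small RNA, and white cells contribute a minor part.

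The 5p arms of the family are the main products, and their sequences show why reads can be hard to assign. They are printed 5′ to 3′ from RefSeq, on assembly GRCm38.p6, with the seed (bases 2 to 8) in capitals. All 6 precursors were matched by symbol.
mmu-miR-181a-5p: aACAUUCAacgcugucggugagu
mmu-miR-181b-5p: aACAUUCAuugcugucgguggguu
mmu-miR-181c-5p: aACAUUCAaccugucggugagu
mmu-miR-181d-5p: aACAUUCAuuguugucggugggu

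The 4 arms share 1 seed, and no other of the 1679 mature names in the RefSeq table had it. Counted from 1 at the 5′ end of the first named arm, miR-181b differs from miR-181a at A9U, C10U and A21G and is 24 bases long against 23, and miR-181d differs from miR-181b at C12U. miR-181c differs from miR-181a by G11del, the loss of 1 base. All these changes lie outside the seed.

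The a and b arms each come from a pair of hairpins. The pair for miR-181a is printed with the mature arms in capitals, because these copies hold the same 5p arm within different hairpins.
Mir181a-1: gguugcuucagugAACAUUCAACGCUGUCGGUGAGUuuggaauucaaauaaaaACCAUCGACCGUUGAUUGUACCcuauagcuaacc
Mir181a-2: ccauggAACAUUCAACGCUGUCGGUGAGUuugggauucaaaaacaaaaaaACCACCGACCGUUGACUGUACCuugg

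A read of the 5p arm cannot be assigned to 1 of these hairpins, since they share a run of 28 bases, and Mir181b-1 and Mir181b-2 share a run of 26. The 3p arms do differ between copies. They are printed with their own seeds in capitals, as the only mature sequence that tells the copies apart.
mmu-miR-181a-1-3p: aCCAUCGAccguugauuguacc
mmu-miR-181a-2-3p: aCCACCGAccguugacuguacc
mmu-miR-181b-1-3p: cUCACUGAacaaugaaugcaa
mmu-miR-181b-2-3p: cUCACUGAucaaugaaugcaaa

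The 3p arms of the a copies differ at U5C, within the seed, and at U16C. Those of the b copies differ at A9U. The deposited table gives 1 count per hairpin and does not separate the arms.

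The 6 hairpins lie in 3 pairs on GRCm38.p6, an assembly that may not be the one the authors used. Mir181a-1 (chr1:137966455-137966541) and Mir181b-1 (chr1:137966639-137966718) lie on the plus strand with 97 bases between them. GENCODE vM21 places both in an exon of the long non-coding RNA gene A430106G13Rik and in an intron of Gm4258. An intron of Gm26936, another long non-coding RNA gene, lies on the opposite strand. Mir181a-2 (chr2:38852735-38852810) and Mir181b-2 (chr2:38853830-38853918) are 1019 bases apart, also on the plus strand, with no other gene on that strand and an intron of Nr6a1 on the opposite one. Mir181b-2 also overlaps an exon of Gm44144 on the opposite strand. Mir181c (chr8:84178873-84178961) and Mir181d (chr8:84178716-84178787) lie 85 bases apart on the minus strand, in an intron of Nanos3.

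**Figure D1:**
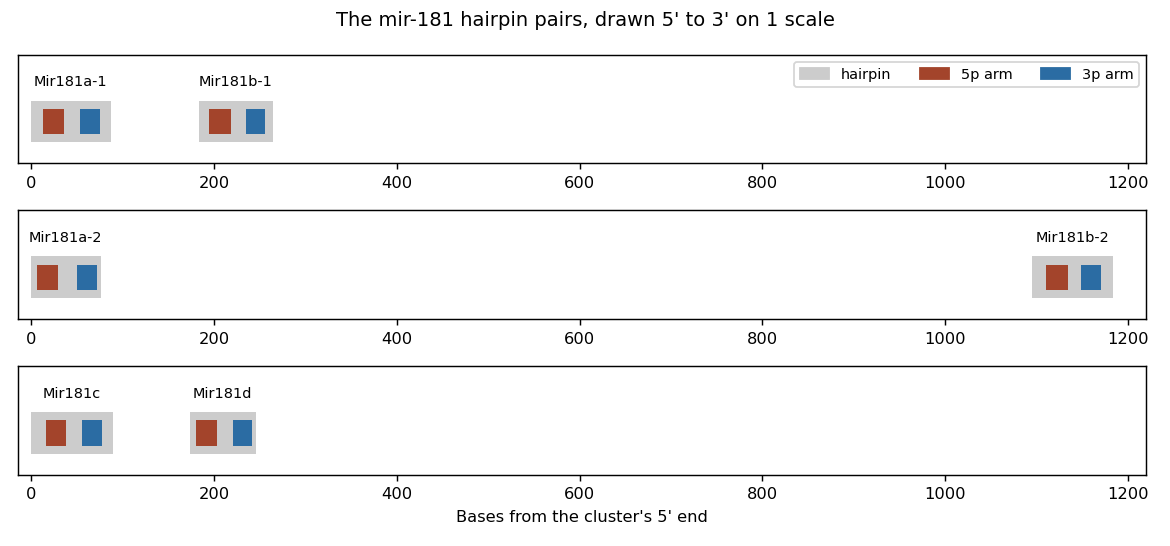
Map of the 3 hairpin pairs, each drawn 5′ to 3′ on 1 scale in bases from the 5′ end of its first hairpin; grey boxes are hairpins, red boxes 5p arms and blue boxes 3p arms. The gap is 1019 bases for Mir181a-2 and Mir181b-2, against 97 and 85 bases for the other pairs.

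Libraries held 4.884 to 24.25 M counts (median 15.39 M), and the mean total was lowest at 30 months (9.888 ± 2.71 M, SD, n = 5) and 18.84 ± 2.81 M at 2 months. Every member had at least 389 counts in every library. Precursors known from red cells (a list of 9 led by mir-486a and mir-451a, with overlapping hairpins) took 72.5% to 82.2% of the counts of a library. Of 6 tested precursors known from myeloid cells, edgeR called 5 at both 24 and 30 months against 2 months, all higher, where 12.1% and 14.2% of all tested precursors were called in either direction. In a bulk sample, fewer cells of a type and less RNA per cell cannot be told apart.

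The copies held nearly the same counts. mir-181a-1 took 48.95% to 50.76% of the counts of both a copies over the 25 libraries, and the 95% exact (Clopper-Pearson) interval held 50% in 23 libraries. For mir-181b-1 the share was 47.26% to 53.73%, and the interval held 50% in 22. Intervals here cover counting error only, since the libraries carry no molecular identifiers. How reads that fit several hairpins were counted is not known, so a value of an a or b hairpin may hold reads of its copy.

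Levels are given as CPM, which scales counts to a common library size after adjustment by the trimmed mean of M-values (TMM). They are not divided by length. By mean over the 25 libraries, mir-181c led with 1088 CPM and ranked 36 among the tested precursors. mir-181a-2 followed with 695 CPM (rank 42) and mir-181a-1 with 691 CPM (rank 43). mir-181d had 122 CPM (rank 84), mir-181b-2 had 64.6 CPM (rank 95) and mir-181b-1 had 62.9 CPM (rank 102). In every library mir-181c was above each a copy, each a copy above mir-181d, and mir-181d above each b copy. The copies lie close together in this order. Within libraries, the log2 ratio of mir-181b-1 to mir-181b-2 was −0.10 to −0.04 at 2 months and −0.09 to −0.01 at 30 months. At the other ages it lay on both sides of 0. The log2 ratio of mir-181a-1 to mir-181a-2 lay on both sides of 0 at every age. Where the reads of miR-181a had been divided between its hairpins, their sum would stand above mir-181c, with a mean ratio of 1.5 at 2 months and 1.13 at 30 months, so the order of a and c depends on that unknown rule.

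mir-181a-1, the hairpin of the arm known from T cell receptor signalling, was at 544, 772, 795, 878 and 721 CPM at 2 months. At 9 months it was at 722, 709, 745, 869 and 963 CPM. At 30 months it was at 480, 570, 737, 452 and 764 CPM. The highest mean was that of 9 months (801 ± 110 CPM) and the lowest that of 30 months (601 ± 144 CPM; SD, n = 5 for every age). At 30 months 2 libraries lay below the lowest of 2 months, and the other 3 lay within the range of that age. The means at 2, 15 and 24 months lay between, at 742 ± 125, 632 ± 85.5 and 679 ± 97.9 CPM. mir-181a-2 followed the same order of ages, from 810 ± 112 CPM at 9 months to 593 ± 137 CPM at 30 months.

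mir-181c, the most counted single hairpin, was at 825, 887, 1071, 1195 and 949 CPM at 2 months. It was at 964, 1171, 1258, 1247 and 1422 CPM at 9 months. At 30 months it was at 1163, 967, 966, 796 and 1368 CPM. Its lowest mean was thus at 2 months (985 ± 148 CPM) and its highest at 9 months (1212 ± 167 CPM), with 30 months at 1052 ± 219 CPM. Its partner in Nanos3, mir-181d, was at 75.4, 67.0, 120, 142 and 121 CPM at 2 months. At 24 months mir-181d was at 180, 105, 162, 126 and 165 CPM. The mean was highest at 24 months (148 ± 31.0 CPM) and lowest at 2 months (105 ± 32.2 CPM), where 2 libraries stood well below the other 3.

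mir-181b-1 ran from 46.6 to 74.1 CPM at 2 months, with a median of 65.4 CPM. At 30 months it was at 48.5, 59.8, 88.2, 46.3 and 69.3 CPM, a wider spread around the same mean (62.4 ± 17.1 against 62.5 ± 11.7 CPM). Its lowest mean was that of 15 months (55.6 ± 5.63 CPM) and its highest that of 24 months (71.4 ± 10.4 CPM). mir-181b-2 had means of 57.4 ± 8.12 and 72.8 ± 7.84 CPM at the same ages. For each of the 6 members, the ranges of all 10 pairs of ages overlapped. The share of all tested precursors with such overlap was not computed, so nothing particular to the family is read from it.

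**Figure D2:**
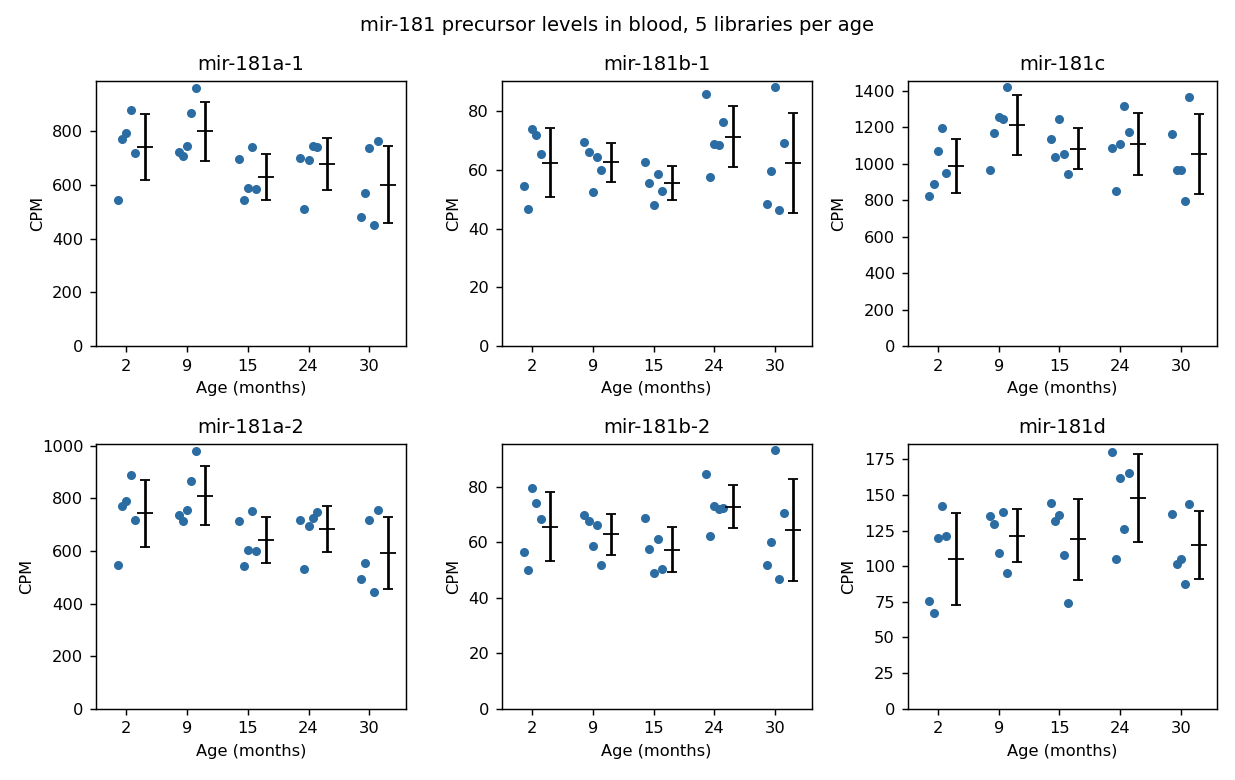
Level of each mir-181 precursor (y axis, CPM from 0) by age in months (x axis); points are the 5 libraries of an age, and bars are the mean and SD. The ages overlap in every panel, and mir-181c stands highest, with single libraries between 796 and 1422 CPM.

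No member passed the test in any comparison. The quasi-likelihood F test of edgeR was fitted to all tested precursors, with p-values adjusted by Benjamini-Hochberg over all of them and a threshold of 0.05. Over 6 members and 9 comparisons, 0 of 54 tests passed and 8 of 54 had an unadjusted p under 0.05. Of all tested precursors, 0% to 19.8% passed in a comparison, and 2.07% to 32.5% had an unadjusted p under 0.05. The comparisons share libraries, so the pooled counts are not read as a result about the family. For a difference between any ages, 0 of 6 members were called, against 7.99% of all tested precursors. At an unadjusted p under 0.05 it was 0 of 6 against 20.4%. The smallest adjusted p there was 0.283 by edgeR, for mir-181a-2.

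At 30 against 2 months 0 of 6 members were called by edgeR, against 14.2% of all tested precursors. At an unadjusted p under 0.05 it was 1 of 6 against 26.6%. mir-181a-1 changed by −0.31 log2 units (SE 0.16, 95% interval −0.63 to 0.02, edgeR adjusted p = 0.221), and mir-181a-2 by −0.33 (SE 0.16, edgeR adjusted p = 0.180). mir-181b-1 and mir-181b-2 were at −0.00 and −0.03, with intervals from −0.34 to 0.33 and −0.37 to 0.31. mir-181c was at 0.09 (−0.21 to 0.40) and mir-181d at 0.13 (−0.31 to 0.56). The median of the 6 was −0.02, beside −0.04 over all tested precursors.

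At 24 against 2 months 0 of 6 were called by edgeR, against 12.1% of all tested precursors. At an unadjusted p under 0.05 it was 1 of 6 against 24.6%. That one was mir-181d, whose log2 change of 0.49 (SE 0.21, 95% interval 0.06 to 0.93, edgeR adjusted p = 0.139) was the highest of any member against 2 months. It passed with a filter of 10 CPM (0.57, edgeR adjusted p = 0.0336), where 26 of 153 tested precursors were called. With library totals as the scaling, mir-181d at 0.86 (adjusted p = 0.0326) and mir-181c at 0.54 (adjusted p = 0.0442) passed in edgeR, but that scaling moved the median of all precursors to 0.36. With it 72 of all tested precursors were called, 69 of them higher, against 41 with TMM. Relative to the median of all precursors, mir-181d was at 0.51 with library totals and 0.50 with TMM.

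At 9 against 2 months 0 of 6 members were called by edgeR, against 2.07% of all tested precursors, and at 15 against 2 months 0 of 6, against 1.48%. At an unadjusted p under 0.05 it was 0 of 6 in both, against 7.69% and 5.92%. The largest difference at 9 months was that of mir-181c, at 0.30 (SE 0.15, edgeR adjusted p = 0.585). Over all 4 comparisons with 2 months, the 95% intervals of the members stayed between −0.65 and 0.93 log2 units.

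**Figure D3:**
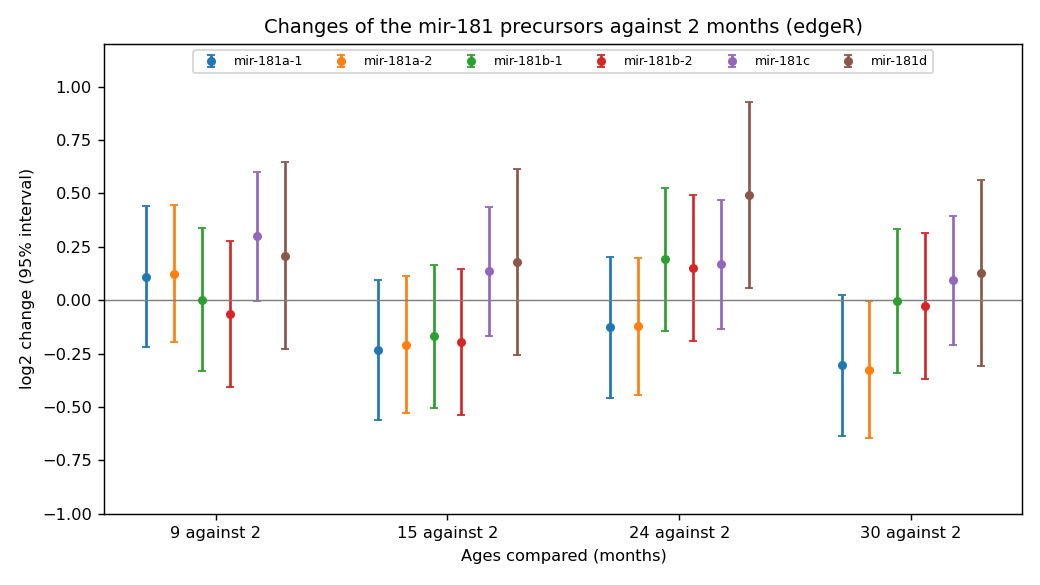
Log2 change of each mir-181 precursor against 2 months (y axis) for the 4 older ages (x axis); points are edgeR estimates and bars their 95% intervals. mir-181d at 24 months stands highest at 0.49, and mir-181a-1 and mir-181a-2 stand lowest at 30 months, at −0.31 and −0.33.

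Between consecutive ages edgeR called 0 of 6 members in each of 3 comparisons. All tested precursors gave 0% at 15 against 9 months, 2.07% at 24 against 15 months and 0% at 30 against 24 months. At an unadjusted p under 0.05 the members numbered 2, 2 and 0, against 2.07%, 10.4% and 3.85% of all tested precursors. The first comparison held mir-181a-1 (−0.34, edgeR adjusted p = 0.997) and mir-181a-2 (−0.33), and the second mir-181b-1 (0.36, edgeR adjusted p = 0.454) and mir-181b-2 (0.34). Each pair is of copies whose counts may hold the same reads.

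The linear trend over 2 to 30 months called 0 of 6 members by edgeR, against 19.8% of all tested precursors. At an unadjusted p under 0.05 it was 2 of 6 against 32.5%. These were mir-181a-1, at −0.12 log2 units per 10 months (SE 0.051, edgeR adjusted p = 0.107; at 0.0020 on the other side of 0 with library totals), and mir-181a-2, at −0.12 (SE 0.050, edgeR adjusted p = 0.0806). DESeq2 gave mir-181a-2 an adjusted p of 0.0350 in its place, and called 80 of all tested precursors in the trend, against 67 by edgeR. mir-181d was at 0.087 (SE 0.070), mir-181b-1 at 0.034 (SE 0.053), mir-181b-2 at 0.030 (SE 0.053) and mir-181c at 0.0059 (SE 0.048).

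Within the family, the mean shares differed between ages. Of the counts of all 6 together, mir-181c took 36.5% ± 1.81 at 2 months, and 42.4% ± 4.72 at 30 months. The share of mir-181a-1 was 27.4% ± 1.44 and 24.1% ± 2.49, and that of mir-181d 3.84% ± 0.794 and 4.64% ± 0.683. The ranges of the 2 ages overlapped for each of these. The family as a whole held 0.242% ± 0.0481 of all counts at 2 months, 0.320% ± 0.0696 at 24 months and 0.267% ± 0.0736 at 30 months. These sums count both copies of a and of b, which may hold the same reads. With library totals as the scaling, the median of all tested precursors also rose against 2 months, by 0.36 log2 units at 24 months and 0.20 at 30 months. A change of the family is thus not read from these shares.

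Ratios of members within a library, which do not depend on scaling, were compared for the 15 pairs. A permutation test of the slope on months (two-sided, 100000 resamples, adjusted over the 15 pairs) passed for 8 pairs, each of an a copy with b, c or d. The other 7 pairs, among them c with d and b with c, did not pass. Unequal slopes were common in these libraries: among all 11476 pairs of precursors of at least 10 CPM, 44.4% had an unadjusted p under 0.05 in the same test. At an unadjusted p under 0.05 the pairs of members also numbered 8 of 15. This is near that background, and nothing particular to the family is read from it.

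With the copies summed, the ratio of mir-181a to mir-181c was 1.32, 1.74, 1.48, 1.48 and 1.52 in the libraries of 2 months. It was 0.838, 1.16, 1.51, 1.13 and 1.11 at 30 months. The slope was −0.13 log2 units per 10 months (permutation p = 0.00318). At 30 months 4 of 5 libraries lay below all 5 of 2 months, and replicate 3 lay among them.

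The ratio of mir-181a to mir-181b was 9.85, 16.0, 10.3, 12.1 and 10.8 at 2 months and 9.72, 9.38, 8.02, 9.62 and 10.8 at 30 months, with a slope of −0.15 (permutation p = 0.00236). The ratio of mir-181a to mir-181d had a mean of 14.6 at 2 months and 10.3 at 30 months, with a slope of −0.21 (permutation p = 0.00519). Without the 2-month libraries, 4 of the 15 pairs passed, all of them a with b. The pairs of a with c and with d then had permutation adjusted p from 0.156 to 0.284, in a test with 5 fewer libraries. Their slopes for mir-181a-1 and mir-181a-2 were −0.18 and −0.19 log2 units per 10 months with mir-181d, against −0.21 and −0.21 over all ages. With mir-181c they were −0.08 and −0.09, against −0.12 and −0.13. The list of myeloid precursors, mostly by counts of mir-21a, which did not pass at 24 or 30 months, summed to 0.368% to 0.788% of counts at 2 months and 0.356% to 0.822% at 30 months, a range that largely overlaps. The erythroid list held 80.1% ± 1.27 and 77.3% ± 3.02 of counts (SD, n = 5). The list of 7 platelet and endothelial precursors had 5 called in the edgeR trend, 4 of them lower, against 19.8% of all tested precursors called. It summed to 0.0280% to 0.0703% of counts at 2 months and 0.0342% to 0.0764% at 30 months. The highest count in a library was 12124 for mir-221 and 3198 for mir-222, against 424 for mir-126a, so this sum says little of the other precursors listed. The median log2 change of the list at 30 against 2 months was −0.996. edgeR called 4 of 7 there, 3 of them lower, against 14.2% of all tested precursors. The part of these cell types in the ratios was not tested. With lane means removed 8 pairs passed, and with the library total, whose mean was lowest at 30 months, as a covariate 11 passed. The share of all pairs was not computed in these settings or without the 2-month libraries, so nothing particular to the family is read from them. Compared between 30 and 2 months alone, by the exact permutation test, 0 of 15 pairs passed (smallest adjusted p = 0.119), and 6 had an unadjusted p under 0.05, beside 34.7% of all pairs.

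**Figure D4:**
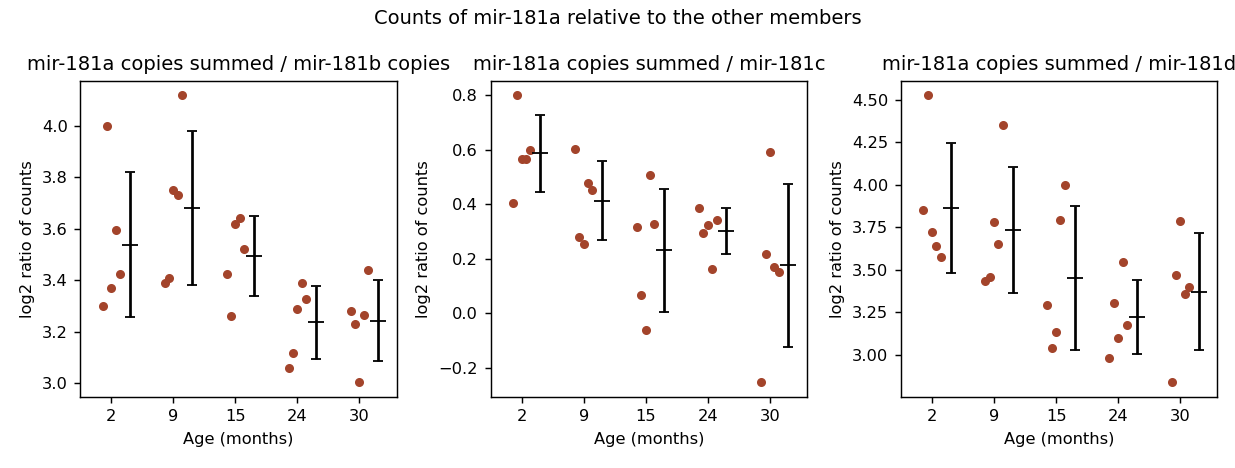
Log2 ratio of the summed counts of mir-181a-1 and mir-181a-2 to mir-181b (copies summed), mir-181c and mir-181d (y axes, which do not start at 0) by age in months; points are libraries and bars the mean and SD (n = 5). Slopes per 10 months are −0.15, −0.13 and −0.21 from left to right, and the ranges of 2 and 30 months overlap in each panel.

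Other blood microRNAs in the same libraries show how much could vary. mir-150, which is abundant in mature lymphocytes, was at 775, 581, 87.2, 64.0 and 430 CPM at 24 months, a 12.1-fold range. In those same libraries, in the same order, mir-181a-1 was at 703, 509, 693, 748 and 744 CPM, a 1.47-fold range. At the other ages mir-150 had a range of 1.76-fold to 2.51-fold and mir-181a-1 of 1.36-fold to 1.69-fold. At 24 months mir-181d had a 1.71-fold range and mir-342, another lymphocyte microRNA, a 3.98-fold range (8.32 to 33.2 CPM). mir-223 and mir-451a, at 1.44-fold and 1.38-fold, were as narrow at 24 months as mir-181a-1, so a narrow range is not particular to the family. The libraries lowest in mir-150 were not low in mir-181a-1, and the one lowest in mir-181a-1 had the second highest mir-150.

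mir-223, known from neutrophils and monocytes, rose from 58.2 ± 2.85 CPM at 2 months to 158 ± 44.1 CPM at 30 months (log2 change 1.44, SE 0.17, edgeR adjusted p = 1.65e-06). Relative to it, the log2 ratio of every member was lower at 30 months, from −1.24 for mir-181d to −1.74 for mir-181a-2. By the exact permutation test 0 of 24 ratios of members to mir-150, mir-342, mir-223 and mir-451a passed after adjustment, and 6 had an unadjusted p under 0.05, all of them to mir-223 (adjusted p = 0.0635 each). With 5 against 5 libraries this exact test cannot go below p = 0.00794. Against mir-223, 93.4% of all precursors of at least 10 CPM had an unadjusted p under 0.05 in this two-sided test. A ratio to it that differed was thus shared by most of these precursors, in directions that were not counted. Ratios to mir-150, mir-342 and mir-451a, the red cell microRNA, gave 0 of 6 each at an unadjusted p under 0.05, beside 17.9%, 5.30% and 29.1% of all precursors.

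**Figure D5:**
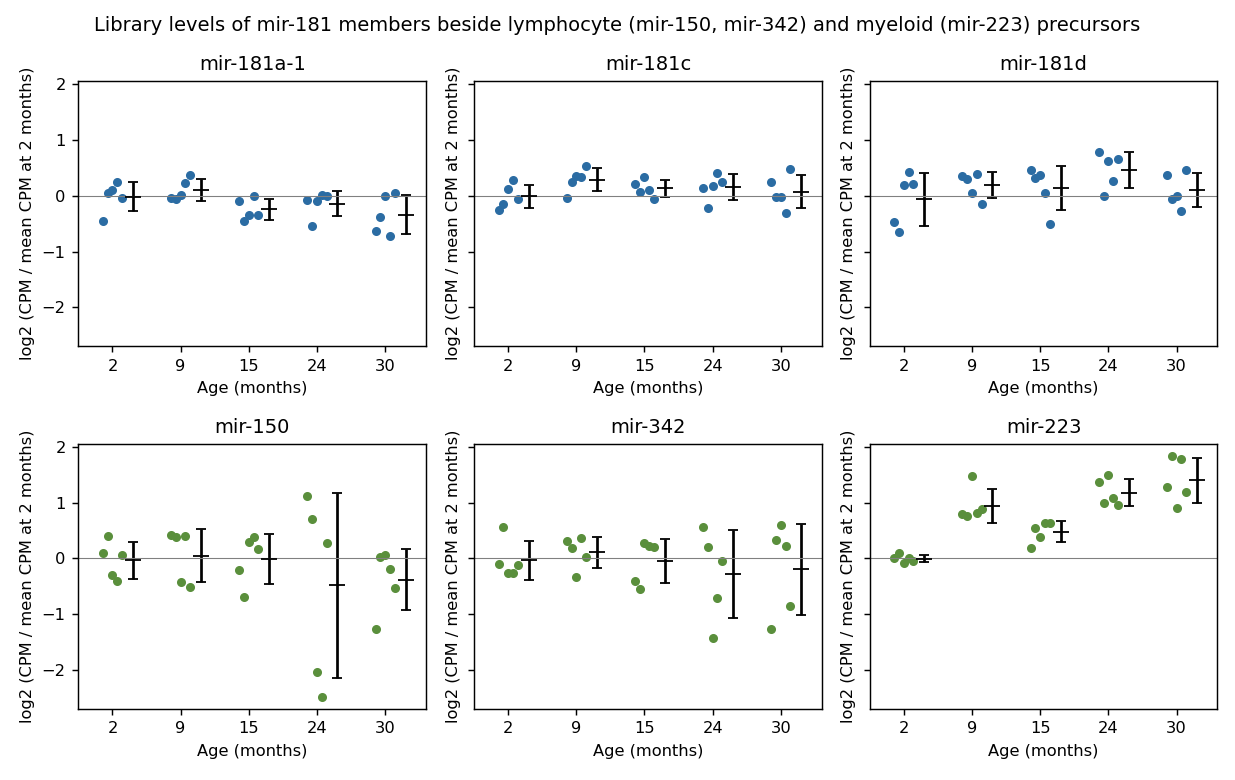
Log2 of CPM over the mean CPM at 2 months (y axis) by age for 3 mir-181 precursors (blue) and for mir-150, mir-342 and mir-223 (green); points are libraries and bars the mean and SD of n = 5. mir-150 spreads over 64.0 to 775 CPM at 24 months while mir-181a-1 spreads over 509 to 748 CPM.

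A list of 12 microRNAs of lymphocyte development, which includes precursors of the mir-17-92 cluster, was read beside the family. At 24 and at 30 against 2 months edgeR called 0 of 12, against 12.1% and 14.2% of all tested precursors, with 4 and 5 at an unadjusted p under 0.05, against 24.6% and 26.6%. At 9 against 2 months and for any age it called 1 of 12, against 2.07% and 7.99%. That one, mir-31, was chosen after its values were seen and was at −1.18 log2 units at 9 months (SE 0.29, edgeR adjusted p = 0.0266). At 15 against 2 months and between consecutive ages it called 0 of 12. In the trend, 3 of 12 were called, against 19.8% of all tested precursors, a share near the background from which nothing is read about the list. mir-146a, which dampens inflammatory signalling, rose by 0.37 log2 units per 10 months (SE 0.12, edgeR adjusted p = 0.0305). mir-18a and mir-20a of the mir-17-92 cluster fell by 0.11 and 0.41 (edgeR adjusted p = 0.0305 and 0.0449). The 4 most abundant members of the list, mir-92a-1, mir-150, mir-19b-1 and mir-17, were at 0.0017, −0.078, −0.027 and −0.14 and did not pass.

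The precursors whose level kept the steadiest ratio to a member over the 25 libraries were found by the SD of the log2 ratio, among 146 outside the family. For mir-181c these were mir-107 (SD 0.182), mir-103-1 (0.189) and mir-103-2 (0.198), the last pair being copies. For mir-181a-1 they were mir-107 (0.246), let-7d (0.252) and mir-29a (0.260), and for mir-181a-2 mir-107 (0.249), let-7d (0.255) and mir-18a (0.261). For mir-181b-1 they were mir-378a (0.184), mir-26a-1 (0.216) and mir-26a-2 (0.217), and for mir-181b-2 mir-378a (0.160), mir-26a-1 (0.225) and mir-130b (0.226).

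mir-181d had mir-130a (0.208), mir-148a (0.266) and mir-27b (0.271) nearest. These were closer than its own cluster partner, mir-181c (0.305), and the median over the 146 was 0.502. mir-181c and mir-181a-1, from different chromosomes, had an SD of 0.234. All these ratios share library depth and are descriptions of these 25 libraries. The SD against mir-150 was 0.83 to 0.94 for all 6 members. For mir-181a-1 it was 1.76 within 24 months, where mir-150 itself ranged most widely, and 0.39 to 0.59 within each other age. The SD of other precursors against mir-150 was not computed.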

How the data were processed

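Members and lists were chosen with earlier results of these data known. The authors deposited raw counts of reads per precursor in 25 small RNA libraries, prepared from total RNA with a TruSeq small RNA kit according to the labels' protocols. Per the submitters' processing notes, software included SAMtools 1.3.1-9, Trimmomatic 0.36 and bcl2fastq 1.8.4. Aligner, counter, build, strand use and the rule for multi-hairpin reads: not given in the sources used here. Of 1193 precursors, 328 were at 0 throughout. A floor of 3 counts was 0.124 to 0.614 CPM.

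Counts were tested with edgeR 4.0.16 in R 4.3.3 (TMM, filterByExpr by age, robust quasi-likelihood fit, all libraries in 1 fit, biological coefficient of variation 28.1%). Log2 ratios used counts + 0.5 and permutation tests written with NumPy 2.4.6. The exact intervals of the copies came from SciPy 1.17.1. The edgeR fit and the permutation tests were tested on simulated data. DESeq2 1.42.0 and limma 3.58.1 (voom) were alternatives, beside other scalings, filters, thinning to the smallest total, lane as a term and each library left out. Replicates were compared first: over 50 same-age pairs, chi-square over its degrees of freedom was at least 124.9. Column names carry lanes 3 to 8, spread unevenly over ages, and index sequences whose alphabetical order follows age except in 2 libraries of 30 months; an effect of index was not tested. Named were all members, the 3 steadiest partners of each, 4 reference precursors, and, of the lymphocyte list, those called at 30 months or in the trend and the 4 most abundant. mir-142 of the myeloid list was not matched by name.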

Additional observations from a re-analysis of the deposited data

Results flagged for a closer look

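In the 30 groups of 5 libraries examined (6 members at 5 ages), 2 had a library far from the others by Dixon's test, whose critical value for 5 samples is 0.71. Both are of 24 months replicate 2. mir-181a-1 was at 509 CPM there, with 693 CPM in the nearest library (gap over range 0.771), and mir-181a-2 was at 531 CPM, with 693 CPM in the nearest (0.749). The copies may hold the same reads, so these may be 1 observation. Chance gives such a value in about 1 in 20 groups. The same library had the lowest mir-181c (848 CPM), mir-181b-1 (57.7 CPM) and mir-181d (105 CPM) of its age.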

How the results depend on the processing

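Counts of called members were the same in 218 of 221 alternatives. At 24 against 2 months, 2 members were called with library totals, where 72 of all tested precursors were called, 69 of them higher. With a filter of 10 CPM 1 member was called there, among 26 called precursors. DESeq2 called 1 member in the trend, where it called 80 of all tested precursors. Nothing particular to the family is read from these calls. Of 1116 alternatives for single changes, 57 changed sign, none of them past the threshold. With library totals the trend of mir-181a-1 was at 0.000201 log2 units per month. At 24 against 2 months mir-181a-1 then went from −0.13 to 0.24 and mir-181a-2 from −0.12 to 0.25, and the median of all precursors from −0.00 to 0.36. Relative to that median, both stayed below 0 (−0.11 each). Pairs of members with a trend numbered 8 in every leave-one-out, 4 without the 2-month libraries, and 3 of 6 with copies summed, which tests fewer pairs. The share of all pairs of precursors was not computed in these settings. Ratios to reference precursors that passed numbered 0 to 5 in leave-one-out. The 5, all to mir-223, passed without 30 months replicate 3 (exact permutation test, adjusted p = 0.0381), and the cause was not tested. With all libraries, 93.4% of all precursors of at least 10 CPM had an unadjusted p under 0.05 against mir-223. That share was not computed in leave-one-out. The alternatives without the 2-month libraries or those under 8 M counts, with lane means removed, with library totals as a covariate or with copies summed were chosen after seeing the data. No paired analysis was possible because replicate numbers follow the order of the samples and pair no animals. Every member had at least 389 counts in each library.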
